A study of Mus musculus with 4 samples.

Results

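DNA replication and mitosis genes were followed in the cytosolic RNA of mouse bone marrow-derived macrophages. A list of 39 gene symbols was taken, and all 39 were found among the gene names of the deposited transcript tables and joined by Ensembl gene identifier to the gene tables, which hold 55536 genes. The list has 21 DNA replication genes, 16 mitotic genes and the 2 cyclin E genes of the G1 to S transition, which were kept apart when the 2 classes were compared. The replication genes had a median of 4.20 ± 1.85 TPM (a transcript level scaled to transcript length and to the library's total), and the mitotic genes a median of 0.931 ± 0.190 TPM (SD, n = 4 libraries). The replication median was the higher in each of the 4 libraries, by 3.39-fold to 5.72-fold. In such bulk RNA, fewer cycling cells and less RNA of these genes per cell cannot be told apart.

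All 4 libraries are biological replicates of 1 condition, so no treated group can be set against a control. The cells were primary C57BL/6J macrophages that had received lipid A at 100 ng/ml for 12 h, had then been kept without it for 12 h, and had received 100 ng/ml again for 15 min before the cytosolic RNA was taken. Lipid A anchors lipopolysaccharide in the bacterial outer membrane and is what Toll-like receptor 4 binds. Total RNA depleted of ribosomal RNA was sequenced. Sex and age were not recorded, and all 4 libraries carry the same donor record. Nothing in the labels says that the cultures came from separate animals, so the p-values reflect only how far these samples spread, part of which may be technical.

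A cell copies its DNA once per division. In late mitosis and G1, Cdc6 and Cdt1 load the hexameric MCM helicase onto replication origins, and in S phase Cdc45 and the GINS complex turn it into the active helicase, behind which DNA polymerases, the sliding clamp Pcna and the nick-sealing enzymes work. In mitosis, Cdk1 bound to A- and B-type cyclins, the Aurora and Polo-like kinases, kinesin motors and the anaphase-promoting complex condense and part the chromosomes. Most replication genes are known targets of E2F factors, which act at the G1 to S transition, while many mitotic genes are transcribed later through cell cycle homology regions and CCAAT boxes bound by the MuvB-B-Myb-FoxM1 complex and by NF-Y. Macrophages grown from marrow divide under macrophage colony-stimulating factor, and activation through Toll-like receptor 4 is known to slow their division.

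The libraries held 30660511, 36681241, 48223718 and 42785115 expected counts in replicates 1 to 4. Protein-coding genes took 25.3% to 36.6% of the TPM, the rest going to genes of other types, so a level in TPM is low for a protein-coding gene in these libraries and depends on that share. All 10 macrophage markers, led by Lyz2 (lysozyme, 3430 ± 684 TPM), Adgre1 (the F4/80 antigen, 706 ± 205 TPM) and Cd68 (a lysosomal glycoprotein, 647 ± 140 TPM), were above 1 TPM. Of the 36 markers of progenitors and granulocyte precursors, erythroid cells, lymphoid cells and fibroblasts, none was above 1 TPM, 14 were below it and 22 had too few counts to be tested. These marker lists summed to at most 1.06, 0.77, 0.42 and 0.46 TPM in any library, and 3 erythroid markers and 1 lymphoid marker had no count at all. The highest of them were Prtn3, Kit and Cebpe among progenitor and granulocyte precursor markers (0.23, 0.19 and 0.083 TPM on average), Epor, Alas2 and Hba-a1 among erythroid ones (0.36, 0.073 and 0.035 TPM), Vpreb1, Cd3e and, tied, Cd3g and Cd79a among lymphoid ones (0.16, 0.063 and 0.023 TPM) and Thy1, Dcn and Pdgfrb among fibroblast ones (0.090, 0.048 and 0.038 TPM). Replicate 1 stood apart for the replication genes, and the results that turn on it are given with and without it.

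The upstream sequences of the classes were searched for the words of these factors, as a description without a test. RefSeq promoter windows of GRCm38.p6, from 250 bases before to 50 bases after the annotated start, were at hand for 32 of the 39 genes. Ccna2, Gins2, Foxm1, Ccne2, Mcm4, Aurkb and Tpx2 had no entry. A gene was counted if any of its windows held the word. The 19 replication genes had 24 windows and the 12 mitotic genes 12, so replication genes had more sequence in which to match. The 17492 protein-coding genes had 21263. An E2F core word (TTCCCGC and TTCGCGC and TTGCCGC and TTGGCGC were searched, on both strands) stood in a window of 15 of 19 replication genes (78.9%), 3 of 12 mitotic genes (25%) and 13.7% of 17492 protein-coding genes. A cell cycle homology region word (TTTGAA or TTCGAA) stood in 5 of 19 replication genes (26.3%), 9 of 12 mitotic genes (75%) and 20.2% of protein-coding genes. The CCAAT box was frequent in both, at 14 of 19 replication genes (73.7%) and 11 of 12 mitotic genes (91.7%), against 42.3% of protein-coding genes. Over all 27025 genes of the table, including non-coding ones, the shares were 10.9% for the E2F core, 21.7% for the cell cycle homology region and 41.1% for the CCAAT box. These are matches of letters and carry no measurement of binding, and the E2F words can overlap each other.

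**Figure D1:**
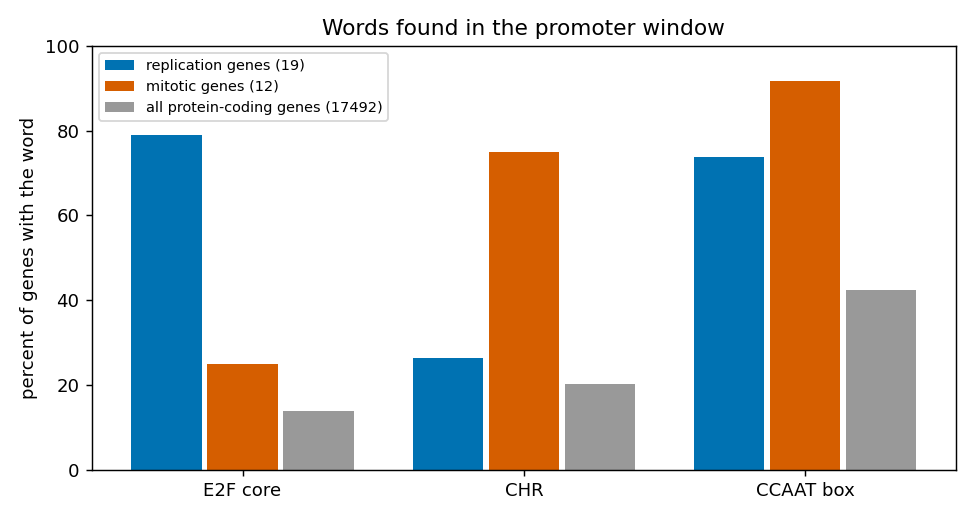
Percent of genes with each word on either strand in any of their promoter windows (250 bases before to 50 bases after the start). Shown are 19 replication genes, 12 mitotic genes and all 17492 protein-coding genes of the table. For the E2F core the replication bar is the tallest of the 3 (78.9%), and for the cell cycle homology region (CHR) the mitotic bar is (75%), while for the CCAAT box both stand above that of all protein-coding genes.

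The 250 bases before the start are shown for 5 genes, because they hold several of the words frequent in their class or, for Cdk1, those of both classes. Capitals mark the words on either strand, and adjoining capitals are words that overlap.
Mcm6, chr1:128359706-128359955, minus strand: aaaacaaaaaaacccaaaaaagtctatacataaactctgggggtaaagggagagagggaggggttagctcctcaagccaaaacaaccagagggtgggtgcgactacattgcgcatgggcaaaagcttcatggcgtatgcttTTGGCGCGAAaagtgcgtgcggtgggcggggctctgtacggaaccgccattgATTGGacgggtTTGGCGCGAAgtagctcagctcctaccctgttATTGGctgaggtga
Mcm5, chr8:75109259-75109508, plus strand: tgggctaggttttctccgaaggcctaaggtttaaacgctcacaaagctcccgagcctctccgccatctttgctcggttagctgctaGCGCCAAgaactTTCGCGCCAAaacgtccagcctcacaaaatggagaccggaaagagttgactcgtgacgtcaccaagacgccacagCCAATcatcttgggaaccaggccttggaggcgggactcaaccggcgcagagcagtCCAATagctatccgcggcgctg
Pola1, chrX:93632156-93632405, minus strand: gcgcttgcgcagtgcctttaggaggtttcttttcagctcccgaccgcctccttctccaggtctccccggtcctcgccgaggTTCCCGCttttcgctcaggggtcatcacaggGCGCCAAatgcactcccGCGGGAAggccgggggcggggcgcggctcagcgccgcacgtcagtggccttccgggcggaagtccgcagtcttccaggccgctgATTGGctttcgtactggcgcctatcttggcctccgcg
Top2a, chr11:99024190-99024439, minus strand: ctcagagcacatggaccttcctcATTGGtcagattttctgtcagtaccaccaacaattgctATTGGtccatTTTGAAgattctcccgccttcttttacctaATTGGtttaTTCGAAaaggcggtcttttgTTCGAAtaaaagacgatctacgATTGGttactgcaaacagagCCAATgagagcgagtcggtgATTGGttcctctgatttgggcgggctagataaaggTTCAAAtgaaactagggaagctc
Cdk1, chr10:69352913-69353162, minus strand: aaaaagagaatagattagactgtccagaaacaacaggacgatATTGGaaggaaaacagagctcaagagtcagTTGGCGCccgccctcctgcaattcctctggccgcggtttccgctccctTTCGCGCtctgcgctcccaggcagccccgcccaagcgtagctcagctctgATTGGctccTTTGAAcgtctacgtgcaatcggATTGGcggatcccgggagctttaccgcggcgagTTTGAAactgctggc
In Mcm6, 4 E2F words form 2 overlapping pairs, each with a word on either strand, and the stretch also has 2 CCAAT boxes. Mcm5 has 3 E2F words, of which 2 overlap, and Pola1 has 3 that stand apart. Neither Mcm6, Mcm5 nor Pola1 has a cell cycle homology region word in these bases. Top2a has no E2F word, 4 cell cycle homology region words and 6 CCAAT boxes, the CCAAT boxes nearest the start lying 58, 78 and 98 bases before it. Cdk1 has 2 E2F words at 130 and 178 bases before the start and 2 cell cycle homology region words at 15 and 71 bases before it.

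Most replication genes lay above a level of 1 TPM, and most mitotic genes did not. A limma test asked of each gene whether its level lay above or below 1 TPM, a fixed level used to mark low abundance, with Benjamini-Hochberg adjustment over 16262 genes. Of the 39 genes, 23 were above 1 TPM, close to the share of all genes tested (58.2%) and under that of protein-coding genes (71.2%). Below 1 TPM were 6, beside 35.1% of all genes tested and 22.4% of protein-coding genes, and 10 were called neither way. By class, 18 of 21 replication genes were above and none below, while 4 of 16 mitotic genes were above and 6 below. The replication genes called neither way were Cdc45, Cdc6 and Chaf1a. These calls turn on the scale. Rescaling TPM to protein-coding genes raised the median gene by 1.66 on the log2 scale. On that scale 36 of the 39 were above and 0 below (limma, the same adjustment), against 11024 and 3453 of 16262 genes. Without replicate 1, on TPM as deposited, 20 were above and 10 below, against 9435 and 5420 of 15952 genes.

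The helicase genes were led by Mcm6. Mcm6 had 24.3, 8.09, 15.5 and 12.9 TPM in replicates 1 to 4, and lay above 1 TPM by 3.69 ± 0.22 on the log2 scale (SE; limma adjusted p = 5.5e-08). Mcm3 followed with 17.0, 5.68, 11.8 and 7.74 TPM. Mcm5, Mcm4 and Mcm2 came close to each other, at 5.43 ± 3.36, 4.68 ± 2.34 and 4.64 ± 2.35 TPM (SD, n = 4), and changed places between libraries. Mcm7 was the lowest of the 6 subunits in every library, with 6.86, 2.03, 3.69 and 2.59 TPM. The Mcm6 RNA level was 4.18 ± 0.60 times the Mcm7 level (SD, n = 4), with a range of 3.54 to 4.98. The subunit proteins enter the hexamer in equal number, which RNA levels do not measure. Mcm7 is also overlapped by a gene with more counts than its own (5659 against 2109). The 6 subunits summed to 74.3, 23.7, 45.0 and 34.2 TPM, so that replicate 1 held the most and replicate 2 the least. Cdc45, which joins the helicase at firing, had 1.89, 0.58, 0.76 and 0.67 TPM, and Gins2, a GINS subunit, 5.61, 2.97, 3.86 and 3.94 TPM.

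The licensing factors differed from each other. Cdt1 had 10.3, 4.89, 6.27 and 8.02 TPM, above 1 TPM by 2.71 ± 0.18 on the log2 scale (SE; limma adjusted p = 1.1e-07). Cdc6 had 1.55, 0.45, 0.70 and 0.40 TPM and was called neither above nor below (limma adjusted p = 0.14). The Cdt1 level was 6.65, 10.9, 8.96 and 20.1 times that of Cdc6 in replicates 1 to 4, higher in every library and most so in replicate 4.

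Pcna, the sliding clamp that also serves DNA repair, was the highest of the 39 genes in every library, with 107, 56.7, 67.9 and 78.0 TPM. Its level was 4.37 to 7.01 times that of Mcm6, the next gene in the order. Among the lagging-strand genes, Rfc3, a subunit of the clamp loader, had 8.93, 5.47, 7.21 and 10.1 TPM. Fen1, the flap nuclease, averaged 7.09 ± 2.00 TPM, and Lig1, the ligase that seals the fragments, 3.25 ± 1.32 TPM (SD, n = 4). Pola1 and Prim1, the catalytic subunits of polymerase alpha and primase, were at 1.86 ± 0.57 and 1.92 ± 0.91 TPM, and both passed the test. The ribonucleotide reductase subunits were unequal: Rrm1, the large subunit, averaged 5.48 ± 1.82 TPM and Rrm2, the small and S-phase subunit, 1.63 ± 0.75 TPM, and Rrm1 exceeded Rrm2 by 2.51 to 4.60 times. Tyms, thymidylate synthase, had 2.60, 1.01, 1.34 and 1.44 TPM. Rrm2 and Tyms were above 1 TPM by narrow margins (limma adjusted p = 0.022 and 0.025), and both calls were lost without replicate 1 and without a filter on counts, that of Tyms also without replicate 4. Uhrf1, which carries DNA methylation over to new strands, had 5.45, 1.27, 2.40 and 1.92 TPM, and Chaf1a, a subunit of the histone chaperone CAF-1, 1.93, 0.63, 1.16 and 1.14 TPM.

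Between the classes stand the cyclin E genes, whose products activate Cdk2 at the start of S phase. Ccne1 had 1.73, 1.00, 1.18 and 2.04 TPM and was called above 1 TPM (limma adjusted p = 0.030), a call that was lost without replicate 1, without replicate 4 and without a filter on counts. Ccne2 had 1.90, 0.54, 0.50 and 0.68 TPM and was called neither way. Ccne1 exceeded Ccne2 in replicates 2, 3 and 4 and lay just below it in replicate 1.

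**Figure D2:**
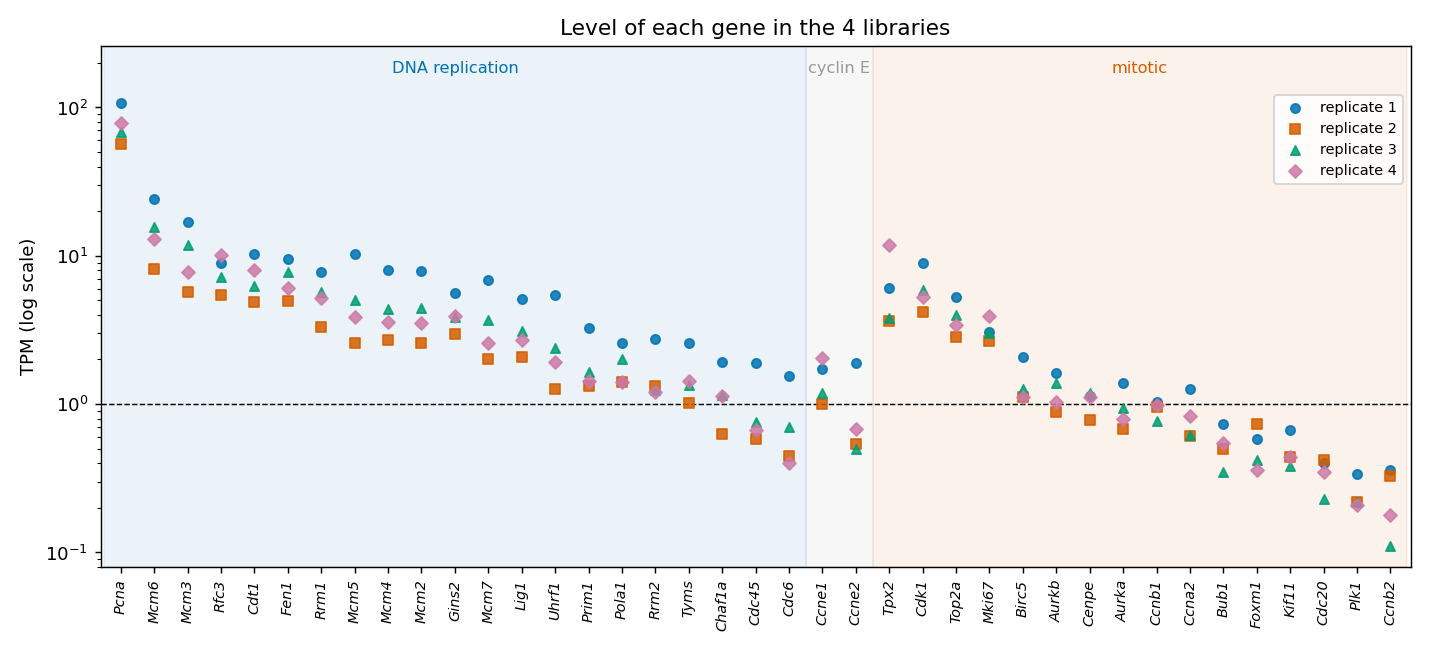
TPM of each of the 39 genes in the 4 libraries, on a log axis, ordered within class by the mean; the dashed line marks 1 TPM. Replication genes run from Pcna (77.4 TPM on average) to Cdc6 (0.775 TPM), and mitotic genes from Tpx2 (6.35 TPM) to Ccnb2 (0.245 TPM), with replicate 1 the highest symbol in most replication genes.

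Among the mitotic genes, 4 were above 1 TPM. Cdk1, the kinase that drives entry into mitosis, had 8.90, 4.15, 5.85 and 5.28 TPM (2.43 ± 0.18 on the log2 scale above 1 TPM, SE; limma adjusted p = 2.8e-07). Top2a, the topoisomerase that untangles sister chromosomes, had 5.29, 2.84, 4.01 and 3.44 TPM, and Mki67, the Ki-67 antigen of cycling cells, 3.08, 2.68, 3.02 and 3.90 TPM. Tpx2, the spindle factor that activates Aurora A, had 6.11, 3.63, 3.81 and 11.8 TPM. Replicate 4 was the highest library for Tpx2 and Mki67, and replicate 1 for Cdk1 and Top2a.

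The cyclin partners of Cdk1 were lower than the kinase. Ccnb1 had 1.03, 0.95, 0.77 and 0.99 TPM, and Cdk1 exceeded it 6.48 ± 1.97 times in TPM (SD, n = 4). A retained-intron transcript, Cdk1-204, held 34.1% of that Cdk1 TPM. In expected counts over all libraries, which are not scaled to length, the gap was smaller. Cdk1 had 1242 counts, Ccnb1 465 and Ccna2 519. Ccna2 had 1.26, 0.61, 0.62 and 0.83 TPM and, like Ccnb1, was called neither way. Ccnb2 was below 1 TPM with 0.36, 0.33, 0.11 and 0.18 TPM, which rest on 24, 31, 11 and 14 counts. At that depth the exact Poisson 95% interval of replicate 3 ran from 0.055 to 0.197 TPM and that of replicate 1 from 0.231 to 0.536 TPM. Such intervals cover counting error only.

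The mitotic kinases and late factors spanned mean levels from 0.248 TPM (Plk1) to 1.39 TPM (Birc5). Aurkb and Aurka, the kinases of the chromosomal passenger complex and of the spindle poles, averaged 1.23 ± 0.33 and 0.95 ± 0.31 TPM and were called neither way, Aurkb being the higher in each library (1.31 ± 0.12 times, SD, n = 4). Birc5, the passenger protein survivin, had 2.08, 1.12, 1.26 and 1.11 TPM and just missed the call (limma adjusted p = 0.053). Plk1, the Polo-like kinase, had 0.34, 0.22, 0.22 and 0.21 TPM, and Cdc20, the activator of the anaphase-promoting complex, 0.40, 0.42, 0.23 and 0.35 TPM. Bub1, a spindle checkpoint kinase, Kif11, the motor that parts the spindle poles, and Foxm1, the transcription factor of late cell cycle genes, averaged 0.53 ± 0.16, 0.48 ± 0.13 and 0.53 ± 0.17 TPM. Bub1, Kif11, Foxm1, Plk1, Cdc20 and Ccnb2 are the 6 genes called below 1 TPM, and the calls of Bub1 and Foxm1 were lost on posterior mean TPM (limma adjusted p = 0.14 for both). Cenpe, a kinetochore motor, had 1.14, 0.78, 1.19 and 1.12 TPM and was called neither way.

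Ordered by mean level, 8 replication genes and 2 mitotic genes, Tpx2 and Cdk1, made up the 10 highest, and the 10 lowest held 8 mitotic genes, Cdc6 and Ccne2. Of the 38 pairs of neighbours in this order, 5 kept the same order in all 4 libraries, so most neighbours were not separated beyond their spread.

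Replication and mitotic genes were then compared within each library, where a common scaling cancels. The median TPM of the replication genes was 6.86, 2.58, 3.86 and 3.51 in replicates 1 to 4, and that of the mitotic genes 1.20, 0.76, 0.855 and 0.91. Their ratio was 5.72, 3.39, 4.51 and 3.86, or 2.10 ± 0.32 on the log2 scale (SD, n = 4), and 1.96 ± 0.21 without replicate 1 (n = 3). The replication class was higher in every library, while the size of the gap differed between libraries and was largest in replicate 1. Of the 21 replication genes, 21, 18, 19 and 19 lay above the mitotic median, and of the 16 mitotic genes, 1, 4, 2 and 3 lay above the replication median, so the classes overlap. For comparison, the median of all genes tested was 2.67, 2.37, 2.67 and 3.07 TPM. The replication median lay above it in replicates 1 to 4, in replicate 2 by little, and the mitotic median below it. The median of the protein-coding genes tested was 4.80, 4.11, 4.85 and 5.52 TPM, which the replication median exceeded in replicate 1 but not in replicates 2, 3 and 4, and the mitotic median in no library. No p is given for the ratio, since the genes were chosen with results of these data known.

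**Figure D3:**
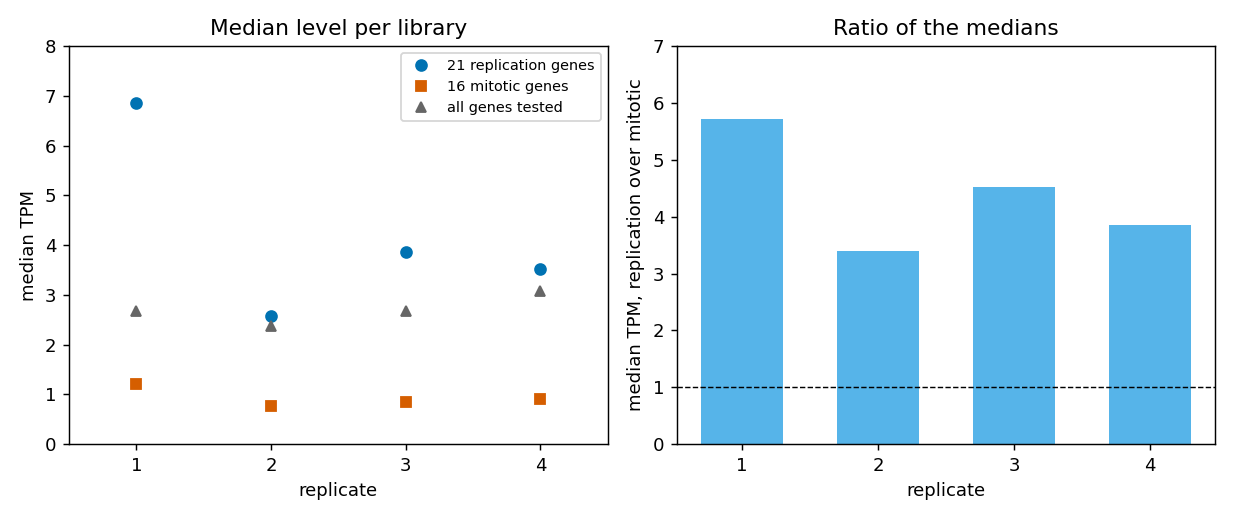
Left, median TPM of the 21 replication genes, the 16 mitotic genes and all genes tested in each library; right, the replication median over the mitotic median in each library, with a dashed line at equality. All 4 ratios lie between 3.39 and 5.72, and the replication median of replicate 1, at 6.86 TPM, stands above those of the other 3 libraries.

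Replicate 1 stood apart for these genes. On log2 CPM, counts scaled to the TMM-normalised library size, each library was set against the mean of the other 3, for genes whose counts averaged 50 or more. Of the 39 genes, 36 passed, all but Ccnb2, Plk1 and Cdc20. Replicate 1 was the highest library for 34 of the 36, against 38.3% of 10989 genes of this depth. That count held 21 of 21 replication genes, 11 of 13 mitotic genes and both cyclin E genes, the exceptions being Cenpe, highest in replicate 3, and Tpx2, highest in replicate 4. The median deviation of replicate 1 was 1.09 for replication genes and 0.71 for mitotic genes on the log2 scale, and 0.05 for all genes. Replicate 1 exceeded the mean of the others by more than 2-fold in 14 of 21 replication genes and 2 of 13 mitotic genes (Ccna2 and Bub1), against 1.97% of all genes. The replication genes farthest out were Uhrf1, Cdc6, Cdc45 and Mcm5, by 1.72, 1.64, 1.55 and 1.52, and the nearest was Rfc3, by 0.39. Mki67 deviated by 0.06 only, and its biological coefficient of variation of 0.113 was the lowest of the 39 genes.

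The other libraries moved less. Each of them was set against a mean that includes replicate 1, so the deviations of a gene are not independent. A high replicate 1 by itself lowers those of the other libraries. The median deviations of the replication genes in replicates 2, 3 and 4 were -0.55, 0.11 and -0.64, those of the mitotic genes -0.23, -0.15 and -0.51, and those of all genes -0.06, 0.02 and -0.01. Replicate 2 was the highest library for none of the 36 genes and replicates 3 and 4 for 1 each, against 16.9%, 23.8% and 21% of all genes. Replicate 4 was the lowest library for 23 of the 36, against 2710 of 10989 genes, and replicate 2 for 11, against 3357. More than 2-fold above the other libraries, 1 member stood out in replicate 4 (Tpx2, by 1.13), against 0.774% of all genes, and 0 of 36 in replicates 2 and 3, against 1.6% and 0.282%. More than 2-fold below them, 1 stood out in replicate 4 (Cdc6, at -1.09), against 0.519%, and 0 of 36 in replicates 1, 2 and 3, against 2.09%, 0.865% and 0.391%. Cdc6 had 2.91, 1.26, 1.68 and 0.86 log2 CPM in replicates 1 to 4, so replicate 1 raised the mean that replicate 4 was set against. On the TPM scale the highest library was another for Rfc3, Ccne1 and Mki67 (replicate 4) and for Foxm1 (replicate 2). The lowest library also turned on the scale. On TPM it was replicate 2 for all replication genes but Cdc6, Pola1 and Rrm2, which were lowest in replicate 4.

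Depth and marker levels in these libraries were as follows. Replicate 1 had the fewest expected counts. The macrophage markers summed to 6374, 4155, 5563 and 5850 TPM in replicates 1 to 4, the progenitor and granulocyte precursor markers to 0.79, 0.51, 0.84 and 1.06 TPM, and the fibroblast markers to 0.46, 0.06, 0.27 and 0.16 TPM. The erythroid markers summed to 0.37, 0.50, 0.77 and 0.29 TPM and the lymphoid markers to 0.34, 0.42, 0.25 and 0.12 TPM. Replicate 1 was highest for the macrophage and fibroblast sums and not for the progenitor, erythroid and lymphoid sums. Lyz2 made up most of the macrophage sum, with 4323, 2656, 3365 and 3376 TPM, whereas the median of the 10 macrophage markers was 123, 96.1, 146 and 155 TPM, higher in replicates 3 and 4 than in replicate 1. The part of these values in the deviation was not tested. The 70 genes of the histone clusters, most of which encode histones made in S phase, had 580, 632, 642 and 659 CPM, lowest in replicate 1. These CPM were scaled to each library's summed gene counts without TMM, unlike the deviations above. In TPM the 70 genes summed to 795, 678, 839 and 967, lowest in replicate 2. The median biological coefficient of variation, the spread between replicates beyond counting error, was 0.313 for the 39 genes (0.313 for replication and 0.308 for mitotic genes) and 0.206 for all genes. With no filter on counts, which lets in many genes of few counts, it was 0.300 for the 39 genes and 0.446 for all genes, so that the 39 genes then lay below all genes. Without replicate 1 it was 0.219 for the 39 genes, 0.185 for replication genes, 0.252 for mitotic genes and 0.170 for all genes.

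**Figure D4:**
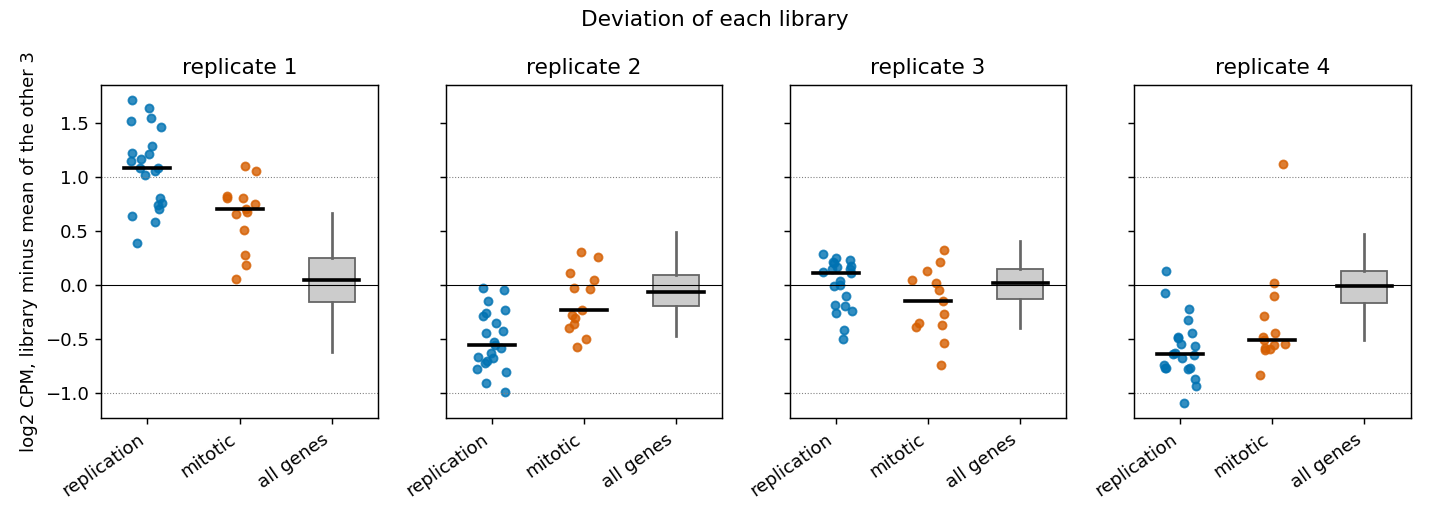
Log2 CPM of each library minus the mean of the other 3, 1 panel per replicate, for 21 replication genes and 13 mitotic genes averaging 50 counts or more (points, with the median as a bar) and for all 10989 such genes (box from the 25th to the 75th percentile, whiskers to the 5th and 95th). In replicate 1 every replication gene lies above 0, with a median of 1.09, and 14 of them lie above the dotted line at 1.

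Other genes of the same processes, outside the list of 39, were compared in the same way. Of all genes tested, 58.2% were above 1 TPM and 35.1% below, and of protein-coding genes 71.2% and 22.4%. Of 43 other replication genes, 35 were above 1 TPM and 3 below (Orc1, the origin recognition subunit, Gins3, another GINS subunit, and Cdc7, the kinase that fires origins). Among those called neither way were Pole and Pole2, subunits of polymerase epsilon, Clspn, a checkpoint adaptor, and Pclaf, a clamp-binding protein. The highest were Samhd1, a nucleotide hydrolase with antiviral roles in myeloid cells, at 354 ± 102 TPM, and the clamp loader subunits Rfc2 and Rfc1 at 25.6 ± 4.5 and 13.6 ± 2.4 TPM. Of 44 other mitotic genes, 16 were above and 18 below, led by Ube2s, a ubiquitin-conjugating enzyme of the anaphase-promoting complex, Pttg1, the securin that guards sister cohesion, and Bub3, a checkpoint protein, at 42.4 ± 6.5, 38.4 ± 9.2 and 12.4 ± 1.9 TPM. The medians were 4.51, 2.99, 3.29 and 3.58 TPM for other replication genes and 1.05, 0.72, 0.765 and 0.865 TPM for other mitotic genes in replicates 1 to 4. Their ratio was 4.32, 4.15, 4.30 and 4.14, close to equal in the 4 libraries. Replicate 1 was highest for 38 of 43 other replication genes and 26 of the 35 other mitotic genes deep enough to compare, with the background of 38.3% as above.

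Upstream regulators were read from the same fit, in which 71.2% of protein-coding genes were above 1 TPM and 22.4% below. Of 19 E2F, pocket protein and DREAM genes, 15 were above and 3 below, namely E2f2, E2f7 and Mybl2 (B-Myb), with 0.48 ± 0.08, 0.16 ± 0.07 and 0.31 ± 0.19 TPM, and Tfdp2 was called neither way. Rbbp4, E2f4 and Rb1, a chromatin subunit, a repressive E2F and the retinoblastoma protein, led with 16.9 ± 4.1, 13.3 ± 2.3 and 12.5 ± 1.8 TPM. Of 17 G1 cyclins, kinases and CDK inhibitors, 15 were above and 2 below, the inhibitors Cdkn2a and Cdkn2b. Cdkn1a, the p21 inhibitor, had 111, 68.5, 78.3 and 85.2 TPM. Ccnd1, cyclin D1, had 58.8, 12.9, 14.3 and 23.7 TPM, with replicate 1 far above the other 3, while its partner Cdk4 was nearly level at 23.2, 20.5, 21.4 and 22.4 TPM.

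The deposited data hold a second quantification of the same libraries, made directly from the reads, which bears on how firm the levels are. On TPM rescaled to protein-coding genes, 0 of 37 members tested differed by more than 2-fold between the second and the first quantification (limma treat, Benjamini-Hochberg over 14119 genes), and 0 did so at an unadjusted p under 0.05. Of all genes, 3.31% were higher and 0.956% lower in the second, and 1416 of 14119 passed at the unadjusted threshold. The members' differences ran from -0.42 on the log2 scale (Mcm3) to 0.43 (Ccne2), with a median of -0.01, beside 0.05 for all genes. Ccnb2 and Plk1 were too low to enter this test.

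Transcript shares were set side by side without a test. A protein-coding transcript led in 37 of 39 genes in the first quantification and in 38 in the second, and the leading transcript was the same in 37. Tyms was led in both by Tyms-205, annotated to undergo nonsense-mediated decay, with 67.5 ± 8.5% of the gene's TPM in the first and 60.3 ± 10.5% in the second (SD, n = 4). Lig1 was led in the first by Lig1-207, a processed transcript without a coding frame, at 49.5 ± 9.0%, but by the coding Lig1-201 in the second at 71.2%, where Lig1-207 had 1.4%. Cdk1 kept a retained-intron transcript, Cdk1-204, at 34.1% in the first and 32.3% in the second. Fen1 was the only gene in which the leader held under 60% in both, with its coding transcripts Fen1-202 and Fen1-201 at 38.4% and 36.5% in the first and 32.6% and 37.7% in the second. TPM shares weight short transcripts up, so a short retained-intron or processed transcript can hold a large share of TPM on few counts.

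**Figure D5:**
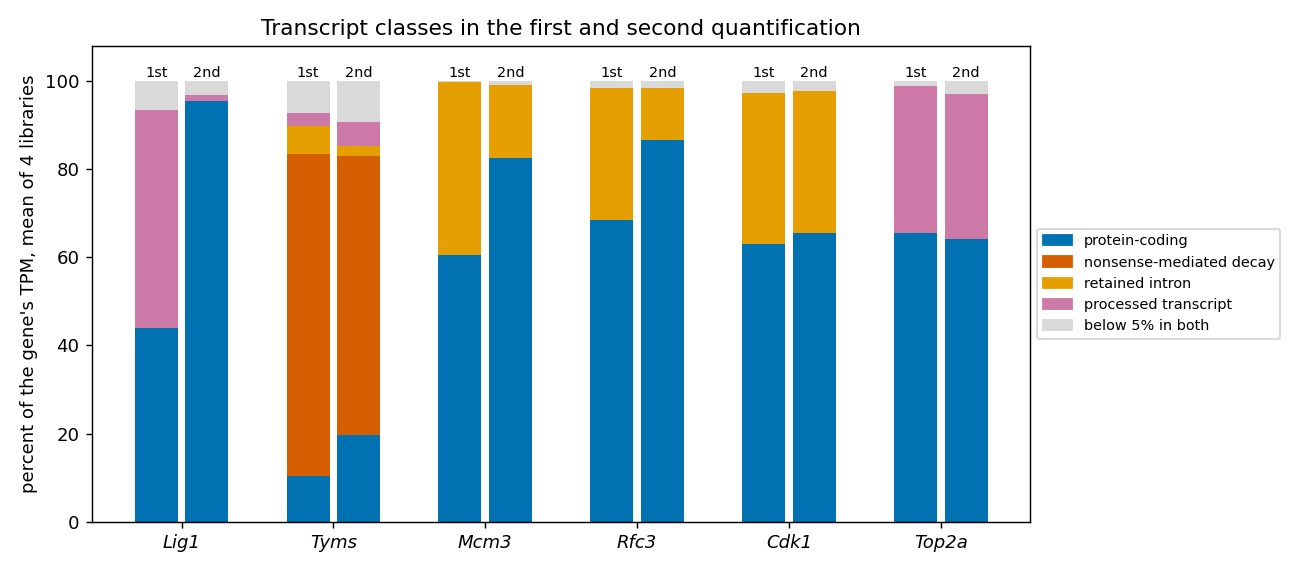
Percent of each gene's TPM held by transcripts of each annotated class, mean of the 4 libraries, in the first and second quantification of 6 genes. The bars of Lig1, Mcm3 and Rfc3 differ between the quantifications, while those of Tyms, Cdk1 and Top2a are alike, with nonsense-mediated decay transcripts leading in Tyms.

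The reading of some levels is limited by neighbouring genes. Another annotated gene overlaps 18 of the 39, and 10 of them are overlapped by a gene with at least 10% of their counts: Mcm7, Cdc45, Gins2, Cdt1, Fen1, Lig1, Chaf1a, Ccne2, Ccna2 and Cdc20. Most of these neighbours lie on the other strand, such as Elovl1 at 44.0 TPM beside Cdc20, and no source used here says whether reads were counted by strand. Gm20388 overlaps Cdt1 on the same strand, with 12140 counts against 3666 for Cdt1, and counting by strand would not separate them. Without those 10 genes, 18 of 29 members were above 1 TPM and 5 below. Of all genes tested, 58.2% were above and 35.1% below, and of protein-coding genes 71.2% and 22.4%. With the 10 genes left out, the replication median over the mitotic median was 2.03 ± 0.44 on the log2 scale. Ccnb2 has a transcribed pseudogene, Ccnb2-ps, with 30 counts in all against 80 for Ccnb2, so its low level is uncertain.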

How the data were processed

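Total RNA-seq libraries of 1 condition (n = 4) were analysed as deposited. Per the labels and the submitters' processing notes, reads were mapped to mm10 with GENCODE M21 annotation. The aligner, the quantifier and the strand setting were not given in the sources used here. Per the file headers, the authors deposited for each library a gene table with expected counts, TPM and posterior mean TPM, a transcript table of the same quantification, and a second transcript table with estimated counts and TPM. The first quantification starts from transcriptome alignments and the second from the read files.

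Genes with at least 10 summed expected counts (16262) were tested with limma 3.58.1 (R 4.3.3) on log2(TPM + 0.1), with a variance trend, one-sided against 1 TPM in each direction, at an adjusted p of 0.05. Differences are therefore on the log2(TPM + 0.1) scale, which understates those of low genes. Quantifications were compared by limma treat against a log2 difference of 1, without a variance trend, for genes with a mean of at least 1 rescaled TPM in either. Expected counts were rounded for edgeR 4.0.16 (TMM normalisation, dispersions, log2 CPM with a prior count of 0.5) and, as an alternative, DESeq2 1.42.0. The scripts were tested on simulated data. Promoter words and figures were made with Python 3.11.15. Total expected counts per library were 30660511 to 48223718.

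All 39 members are named. From every other list, the 3 genes with the highest mean TPM and up to 5 genes that depart from the list's majority call are named, and transcripts where the leader holds under 60% in both quantifications. The other transcripts and genes named (Tyms-205, Lig1-207, Cdk1-204, Ccnb2-ps, Elovl1, Gm20388) were chosen after their values were seen. Members and lists were chosen with earlier results of these data known. One gene of the other replication list is not reported here by name.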

Additional observations from a re-analysis of the deposited data

Results flagged for a closer look

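Among the 4 libraries, 7 of 40 quantities screened (the 39 levels and the class ratio) had 1 library far from the other 3, by Dixon's criterion at the 95% level. Chance flags about 1 in 20 groups, and the genes share the same libraries, so the flags are not independent. Only these 40 quantities were screened, so no share over all genes can be set beside the 7. In 6 of the 7 the library was replicate 1, and it was the highest. Cdc45 had 1.89 TPM there, against 0.58 to 0.76 TPM in the other 3 libraries. Prim1 had 3.27 TPM, against 1.33 to 1.64 TPM. Rrm2 had 2.76 TPM, against 1.20 to 1.32 TPM. Ccne2 had 1.90 TPM, against 0.50 to 0.68 TPM. Plk1 had 0.34 TPM, against 0.21 to 0.22 TPM, on 34 counts. Birc5 had 2.08 TPM, against 1.11 to 1.26 TPM. Cenpe was the exception, with replicate 2 low at 0.78 TPM, against 1.12 to 1.19 TPM. What sets these libraries apart was not tested.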

How the results depend on the processing

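The scale decided the level calls. With TPM rescaled to protein-coding genes, 36 members were above 1 TPM and 0 below, against 11024 and 3453 of 16262 genes. The means of Cdc45 (3.15), Cdc6 (2.52), Ccne2 (2.91), Ccna2 (2.68), Ccnb1 (3.07), Aurka (3.09), Bub1 (1.74), Cdc20 (1.16), Kif11 (1.58) and Foxm1 (1.78 TPM) changed side. With the second quantification rescaled, 35 were above and 0 below, against 11309 and 6378 of 21508 genes. The same 10 genes changed side, at 3.16, 2.62, 3.75, 2.63, 3.41, 3.13, 1.64, 1.06, 1.69 and 2.00 TPM in that order. With the second as deposited, 9 were above and 19 below, against 7324 and 12231 of 21508 genes. The median gene then moved by -1.26 on the log2 scale. Pola1 (0.699), Prim1 (0.713), Rrm2 (0.650), Tyms (0.612), Chaf1a (0.580), Uhrf1 (1.09), Ccne1 (0.612), Aurkb (0.462), Birc5 (0.516) and Cenpe (0.357 TPM) changed side of the level on the log scale. Posterior mean TPM gave 26 above and 4 below, against 9827 and 5438 of 16262 genes. Aurkb, Birc5 and Cenpe were then above, Bub1 and Foxm1 no longer below, and Ccne2 (1.27), Ccnb1 (1.16) and Aurka (1.05 TPM) changed side without a call. The pseudocounts of 0.01 and 1, the filters and TMM scaling left 20 to 24 above and 6 below. Of all genes, 9323 to 9538 were then above and 2800 to 12003 below, of 13287 to 22737 tested.

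Leaving out each replicate left 20 to 24 above and 6 to 10 below. Of all genes, 9329 to 9482 were then above and 4410 to 5420 below, of 15111 to 15952 tested. Without replicate 1, Cdc45, Cdc6, Ccne2 and Ccna2 were also below, and Rrm2, Tyms and Ccne1 were no longer above. With a replicate left out Chaf1a averaged 0.977 (without replicate 1) to 1.41 TPM and Aurka 0.807 (without replicate 1) to 1.04 TPM (without replicate 2). The class ratio stayed positive in every alternative run: 1.75 on the log2 scale by means of log2(TPM + 0.1), and 1.96 to 2.21 with a replicate left out. Between quantifications, 1 member of 27 was lower with TPM as deposited, against 442 of 10329 genes, and the median gene differed there by -1.40. The median coefficient of variation ranged from 0.219 (without replicate 1) to 0.344 with a replicate left out. The cause of these changes was not tested. Leaving out overlapped genes was added after seeing the data. The levels of Ccnb2, Plk1 and Cdc20 rest on 80 to 128 counts over all libraries. No paired analysis was possible because there is 1 group.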
